A study of Mus musculus with 12 samples.

Results

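The 10 genes described here encode secreted or cell-surface proteins of the fibroblast matrix: Postn, Tnc, Thbs1, Thbs2, Sparc, Ctgf, Cyr61, Fn1, Lox and Fap. They were given as a list of names, with no rule on their values, although earlier results of these data were known when the list was made. All 10 were found among the 36229 Ensembl identifiers of the count table. Mouse embryonic fibroblasts of the C57BL/6 strain, grown in 10% fetal bovine serum, were converted to muscle by adenoviral delivery of MyoD, a myogenic transcription factor. The virus stayed on the cells for 24 h, in differentiation medium (horse serum at 2%, insulin at 10 µg/ml), and 72 h in the same medium without virus followed. All groups received the virus, so none shows fibroblasts before differentiation, and every mixed culture may hold unfused fibroblasts beside myotubes. Mixed cultures were wild type (WT), Kdm5a-/- (Kdm5a KO), Rb1-/- (Rb1 KO) or Kdm5a-/-;Rb1-/- (DKO), with 2 libraries each made from ribosome-depleted RNA. Kdm5a encodes a histone H3K4 demethylase, and Rb1 encodes the retinoblastoma protein that restrains cell-cycle genes and supports muscle differentiation. WT and DKO myotubes were also purified: cultures were trypsinised, myotubes were separated from smaller cells by size under gravity, and they recovered for 24 h in medium conditioned by other fibroblasts. Purified myotubes gave 2 libraries per genotype from oligo(dT)-selected RNA on another sequencer, so purified and mixed levels were not tested against each other.

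Matricellular proteins are secreted into the matrix but serve less as scaffold than as signals: they bind integrins, syndecans, growth factors and proteases and alter how cells attach, migrate and read the matrix. Fibroblasts make many of them during wound repair and fibrosis, often downstream of TGF-beta and of the mechanically regulated coactivators YAP and TAZ, which bind DNA through TEAD factors. Fibronectin and lysyl oxidase belong to the scaffold and its crosslinking, and Fap is a cell-surface protease used as a mark of activated fibroblasts.

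Depth was 8688604 to 41309134 reads per library, and the values below are normalised read counts, reads divided by the authors' size factor for the library. The median gene differed between replicates by 0.11 to 0.18 on the log2 scale, and by 0.51 in DKO purified, the pair with the widest spread. All 10 members were higher in replicate 2 than in replicate 1 of WT mixed, with a median gap of 0.35 against 0.18 over all genes. Kdm5a read 1637 and 1871 in WT, 1088 and 1192 in Kdm5a KO, 2094 and 1886 in Rb1 KO and 1319 and 1369.7 in DKO mixed cultures. Rb1 read 5616 and 5649.5 in WT, 5079 and 5193 in Kdm5a KO, 4457 and 4448 in Rb1 KO and 5309 and 5662 in DKO. The deleted exons are not given in the labels, so these whole-gene counts do not check the genotypes. The X-inactivation transcript Xist and the Y-linked Ddx3y divided the libraries by sex. Xist was read at 0 in WT and Rb1 KO mixed cultures, and Ddx3y at 0 in Kdm5a KO and both kinds of DKO. Sex therefore cannot be told apart from loss of Kdm5a, whereas Rb1 KO against WT and DKO against Kdm5a KO each compare libraries alike in these 2 transcripts. The labels leave unsaid whether replicates were grown as separate cultures, so p-values measure the spread between libraries, which may be technical.

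Cell type markers were summed over fixed lists. The 10 skeletal muscle markers summed to 414579 and 382638 in WT, 363750.3 and 382367 in Kdm5a KO, 62777 and 62124 in Rb1 KO and 164004 and 178491 in DKO mixed cultures. Muscle transcripts were present everywhere, and their sum was lowest in Rb1 KO. Myog alone was lower in Kdm5a KO (8748 and 8969) than in Rb1 KO (10378 and 10372). The 10 fibroblast markers, collagens and surface receptors among them, summed to 12983 and 12917 in WT, 8209 and 7590.1 in Kdm5a KO, 51263 and 62382 in Rb1 KO and 16388 and 16499 in DKO. In purified myotubes they summed to 12925 and 14858 in WT and 12036 and 10616 in DKO, so transcripts of some of these genes were present in the purified fraction. The genes were not alike there. In WT purified Lum was at 0 and Dcn had 0 and 3 reads, while Col1a2 read 5308 and 6315. The 5 smooth muscle markers summed to 39946 and 40339 in WT mixed, 29211 and 29120.4 in Kdm5a KO, 41883 and 42541 in Rb1 KO and 18666 and 18397 in DKO. Of the other lists, the endothelial sums lay between 67.0 and 358, with Tie1 at 0 in every group but DKO purified. The epithelial sums lay between 2.13 and 78.1. Macrophage and blood markers lay between 46.1 and 1049, with Hbb-bs at 0 throughout, and cartilage and bone markers between 311 and 2401, the highest being DKO purified replicate 2 on both lists.

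**Figure D1:**
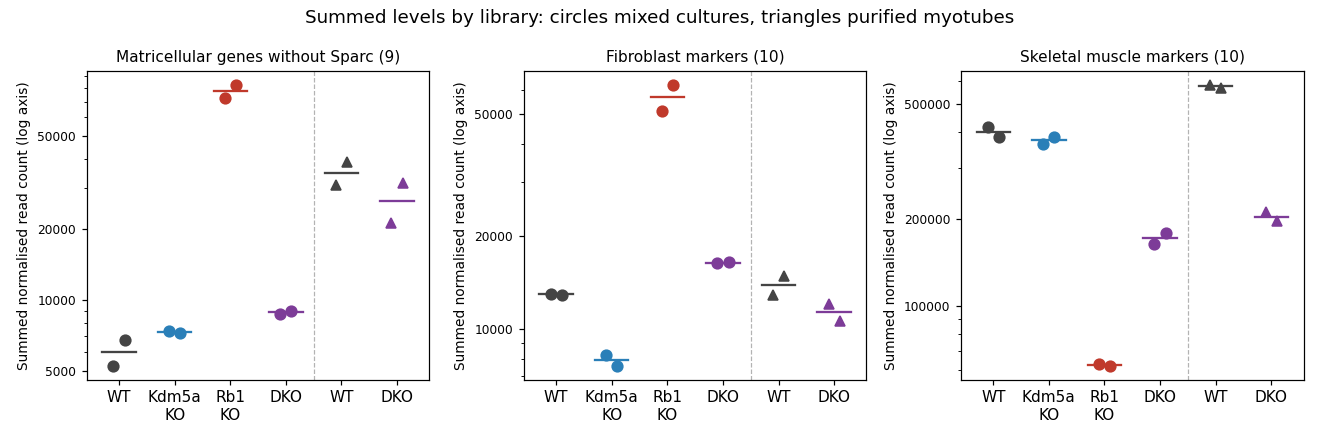
Summed normalised read count (y axis, log scale) in each library (points), by group (x axis). Panels show the members without Sparc, the fibroblast markers and the skeletal muscle markers. The sum of the fibroblast markers was highest in Rb1 KO, where the sum of the skeletal muscle markers was lowest.

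Upstream sequence was looked at because 9 of the 10 genes rose in Rb1 KO and 9 fell from Rb1 KO to DKO. RefSeq start sites (GRCm38.p6, a later build than the mm9 of the counts) matched 5 members, and the 250 bases before the start are printed 5′ to 3′ on the strand of the gene. Postn and Tnc each had 2 listed starts, of which only the more downstream was used. Capitals mark the TEAD letters GGAATG or their reverse complement and the TATA letters TATAA on either strand. The Cyr61 window (chr3:145649986-145650235, minus strand), the Postn window (chr3:54360857-54361106, plus strand), the Tnc window (chr4:64046937-64047186, minus strand), the Thbs2 window (chr17:14694263-14694512, minus strand) and the Sparc window (chr11:55420081-55420330, minus strand) follow, the last as that of the member that did not rise with the others.
Cyr61: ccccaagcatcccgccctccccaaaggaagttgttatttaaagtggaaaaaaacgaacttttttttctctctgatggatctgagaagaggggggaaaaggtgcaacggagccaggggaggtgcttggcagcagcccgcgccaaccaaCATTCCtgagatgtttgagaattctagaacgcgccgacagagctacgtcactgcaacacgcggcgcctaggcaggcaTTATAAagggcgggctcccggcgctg
Postn: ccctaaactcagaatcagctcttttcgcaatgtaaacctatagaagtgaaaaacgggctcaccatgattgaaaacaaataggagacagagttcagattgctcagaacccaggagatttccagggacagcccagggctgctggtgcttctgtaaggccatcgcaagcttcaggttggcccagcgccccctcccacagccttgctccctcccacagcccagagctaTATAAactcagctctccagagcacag
Tnc: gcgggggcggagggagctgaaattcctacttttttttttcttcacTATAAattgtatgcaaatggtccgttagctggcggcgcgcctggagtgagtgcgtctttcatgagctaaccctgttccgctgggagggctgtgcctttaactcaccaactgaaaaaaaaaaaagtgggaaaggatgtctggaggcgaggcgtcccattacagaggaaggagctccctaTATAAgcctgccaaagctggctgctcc
Thbs2: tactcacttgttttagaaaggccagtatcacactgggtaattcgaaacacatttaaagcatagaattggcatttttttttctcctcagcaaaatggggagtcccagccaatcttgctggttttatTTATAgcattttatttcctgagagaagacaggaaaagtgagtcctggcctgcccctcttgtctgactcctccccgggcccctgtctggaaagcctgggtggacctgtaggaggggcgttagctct
Sparc: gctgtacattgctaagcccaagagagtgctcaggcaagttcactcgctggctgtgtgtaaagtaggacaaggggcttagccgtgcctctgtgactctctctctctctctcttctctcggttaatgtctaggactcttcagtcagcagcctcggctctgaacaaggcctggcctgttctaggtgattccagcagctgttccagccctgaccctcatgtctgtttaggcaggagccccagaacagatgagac
GGAATG lay in the Cyr61 window, 103 bases before the start, and in none of the other 4. It occurred in 12.6% of all 32851 RefSeq windows of this length. TATAA lay 26 bases before the start in Postn, 27 in Tnc, and 26 and 25 in Cyr61, where matches on opposite strands overlap. More distant matches lay at 205 bases in Tnc and 125 in Thbs2. Its share of all windows was 22.8%. The SMAD letters CAGAC, searched on both strands, were found once in Sparc and Tnc and 2 times in Thbs2, against 42.2% of windows. The AP-1 letters TGANTCA (6.75% of windows) and the CArG box (1.47%) were in none of the 5. These are letter matches and no measure of binding.

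Levels were first compared between genes per kilobase of exon within WT mixed cultures. Sparc, a collagen-binding glycoprotein also called osteonectin, stood far above the rest at 7723 ± 196 normalised reads per kb (SD, n = 2). Cyr61 (293 ± 74.0), Thbs1 (221 ± 33.0) and Ctgf (192 ± 11.7) came next, and the ranges of neighbours among these 3 overlapped. Postn (117 ± 22.0), Fn1 (112 ± 17.6), Lox (90.0 ± 27.0) and Thbs2 (71.9 ± 17.6) followed, again with overlapping neighbours. Tnc (33.4 ± 4.97) and Fap (0.776 ± 0.50) were the lowest. In Rb1 KO, Thbs1 (2432 ± 184), Postn (2288 ± 30.3), Fn1 (2026 ± 379), Cyr61 (1742 ± 193) and Ctgf (1732 ± 125) were the next below Sparc (5741 ± 325), and neighbours among these 5 overlapped. Sparc ranked first in all 6 groups, although its range in DKO purified (1788 ± 339.6) overlapped that of Fn1 (1717 ± 634). The order of the other members differed between groups. Fap ranked last in 5 groups, and Postn last in WT purified at 2.00 ± 0.805, with a range overlapping that of Fap.

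**Figure D2:**
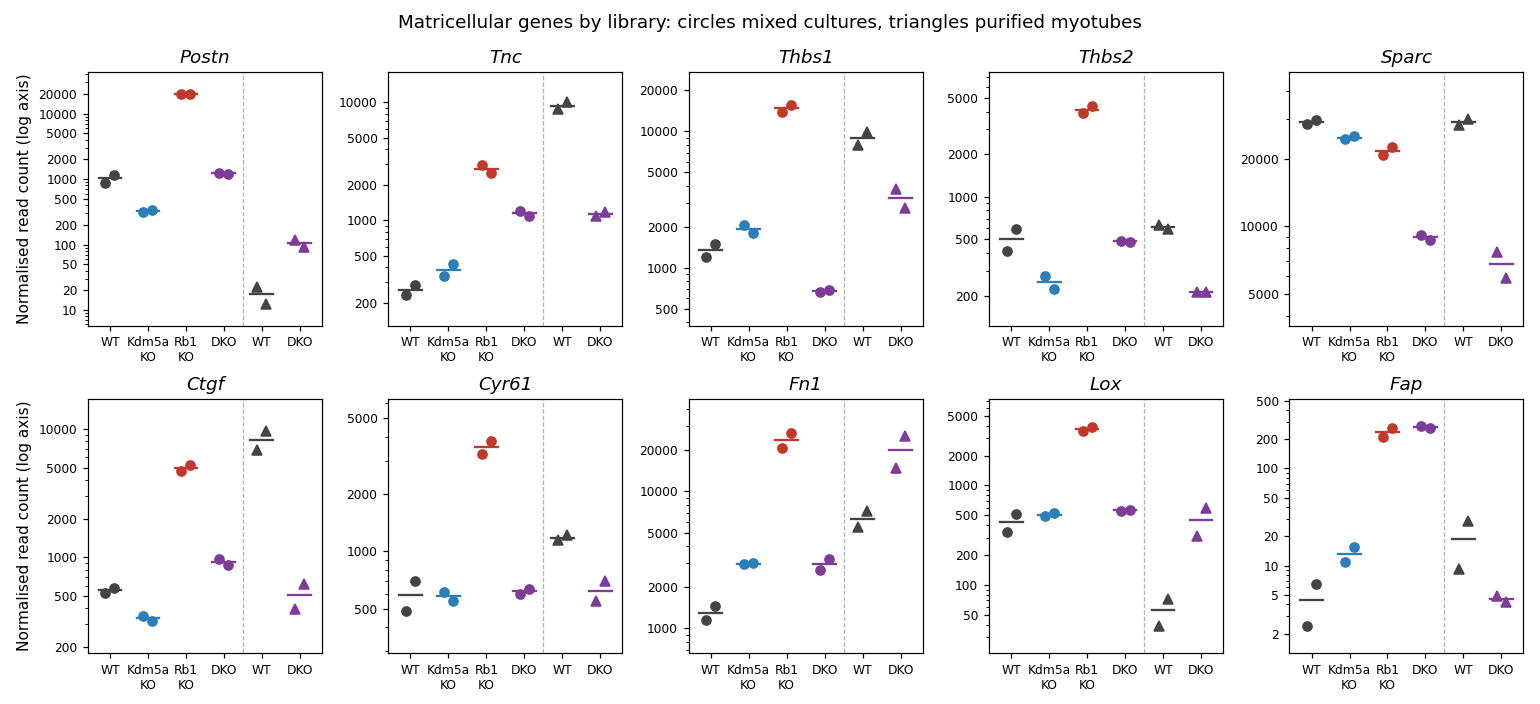
Normalised read count (y axis, log scale, own range per panel) of each member in all 12 libraries (points), with the group mean as a bar; circles are mixed cultures and triangles purified myotubes. In mixed cultures 8 of the 10 genes were highest in both Rb1 KO libraries, Sparc was highest in WT and Fap was high in Rb1 KO and DKO.

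The effect of losing Rb1 alone was read from Rb1 KO against WT mixed cultures. The 9 members other than Sparc rose, by 6.02-fold (Cyr61) to 47.0-fold (Fap) on the scale of the value plus 1, and Sparc fell. Among all 17199 genes tested, 36.8% rose and 34.3% fell (limma, Benjamini-Hochberg adjusted p under 0.05). The median log2 difference was 3.29 over the members and 0.03 over all genes. Without Sparc, the members summed to 5250.1 and 6769.8 in WT and 72776 and 82554 in Rb1 KO. In bulk RNA, a change in the share of a cell type and a change in its RNA per cell cannot be told apart. Which cells made this RNA was not tested, and the members were also counted in purified WT myotubes, as given below.

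Among the adhesion-modulating glycoproteins, Postn (periostin, a fasciclin-domain protein that binds integrins and collagen) read 887 and 1158 in WT and 19721 and 20093 in Rb1 KO. Its log2 difference was 4.30 ± 0.10 (SE, adjusted p = 2.64e-12), and the lowest Rb1 KO library stood far above the highest WT one. Tnc (tenascin-C, a hexameric anti-adhesive protein of wounds) read 232 and 287 in WT and 2942 and 2535 in Rb1 KO, a difference of 3.40 ± 0.13. The trimeric thrombospondins, which bind CD36 and CD47, also rose. Thbs1, which can also release TGF-beta from its latent form, went from 1202 and 1486 to 13982 and 15561, a difference of 3.46 ± 0.098. Thbs2, which restrains angiogenesis and collagen fibril growth, went from 416 and 591 to 3890.2 and 4389.7, a difference of 3.06 ± 0.15. Sparc went the other way. Its WT libraries held 28729 and 29777 and its Rb1 KO libraries 20877 and 22620.3, a difference of -0.43 ± 0.05 (adjusted p = 6.13e-06) with no overlap between groups.

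Both CCN proteins, small heparin-binding integrin ligands and standard YAP/TAZ readouts, rose. Ctgf (also Ccn2) read 525 and 572 in WT and 4702 and 5208 in Rb1 KO, a log2 difference of 3.17 ± 0.092. Cyr61 (also Ccn1) read 486 and 697 in WT and 3241 and 3792 in Rb1 KO, a difference of 2.59 ± 0.14, the smallest of the 9 rises. The scaffold genes rose as well. Fn1, encoding fibronectin, on which other matrix proteins assemble, read 1161 and 1452 in WT and 20547 and 26803 in Rb1 KO, a difference of 4.18 ± 0.12. Lox, the oxidase that crosslinks collagen and elastin, read 339 and 521 in WT and 3540.4 and 3910.0 in Rb1 KO, a difference of 3.14 ± 0.15. Fap, the serine protease, was barely counted in WT, at 2 and 6 reads (2.39 and 6.4 normalised). It had 156 and 288 reads in Rb1 KO (211 and 261 normalised), a difference of 5.55 ± 0.38. The ratio of its pooled reads per size factor was 53.3 (95% interval 26.8 to 124, counting error only). The highest adjusted p of the 10 was that of Sparc.

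The rises stood beside a rise of the fibroblast marker list as a whole: 10 of 10 markers rose, with a median log2 difference of 2.55 and a range of 1.32 to 4.38. All 9 rising members lay above that median, Fap lay above the highest marker and Sparc below the lowest. Of the other lists, smooth muscle had 3 of 5 rising and 1 falling, cartilage and bone 2 of 3 rising and 0 falling, macrophage and blood 2 of 3 rising and 0 falling and endothelium 2 of 4 rising and 1 falling. All 10 skeletal muscle markers fell (median -3.02). The part of cell composition in the members' rise was not tested.

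Some members have exons in common with other genes, so their reads may be shared. Exons of Tnc overlap 8030451A03Rik over 176 bases, and that gene's count was 61.8 to 125% of the Tnc count across libraries. Exons of Ctgf overlap Gm15270 over 665 bases, with 43.8 to 63.3% of its count. Apol7d overlaps Fn1 over 292 bases and held 1.63 to 8.14%. Thbs1 and Lox overlap, over 208 and 30 bases, genes that were not matched in the count table, so no counts of those genes can be given. The levels of these 5 members are uncertain to that extent, since how strand and overlaps were handled was not stated in any source used.

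Whether Kdm5a loss changed the Rb1 KO state was read from DKO against Rb1 KO mixed cultures. These share the Rb1 KO libraries with the preceding comparison, so opposite signs in the 2 are not independent. With Kdm5a also absent, 9 of 10 members fell and none rose, where 24.2% of all genes fell and 23.1% rose. The exception was Fap. The members' median log2 difference was -2.61, against -0.01 over all genes, and without Sparc the members summed to 8700.0 and 9000.0 in DKO.

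Thbs1 fell furthest: it read 660.2 and 686 in DKO, 21.9-fold below Rb1 KO (log2 difference -4.45 ± 0.098, adjusted p = 1.08e-11), and both libraries were below both WT libraries. Postn read 1259 and 1205, 16.2-fold below Rb1 KO (-4.01 ± 0.10). Thbs2 read 485 and 481 (-3.09 ± 0.15), inside the range of the WT libraries. The fall was smaller for Tnc, at 1212 and 1096 (-1.24 ± 0.13), which stayed above both WT libraries. Fn1 read 2682 and 3202 (-3.0 ± 0.12) and Lox 558 and 565 (-2.73 ± 0.15). The CCN genes came down together, Ctgf to 971 and 869 (-2.43 ± 0.092) and Cyr61 to 599.7 and 636 (-2.50 ± 0.14). Sparc, already lower in Rb1 KO than in WT, read 9186 and 8717 in DKO, a further difference of -1.28 ± 0.05. Fap did not pass, at 272 and 259: the log2 difference was 0.18 ± 0.38 (adjusted p = 0.729), and the ratio of pooled reads was 1.10 (95% interval 0.986 to 1.23, counting error only). Of the fibroblast markers, 8 of 10 fell, with a median of -1.79, while 10 of 10 skeletal muscle and 3 of 4 endothelial markers rose and 3 of 5 smooth muscle and 2 of 3 macrophage and blood markers fell. Their part in the members' fall was not tested.

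Kdm5a loss with Rb1 intact had a mixed effect. Against WT, 4 members rose and 4 fell, where 13.4% of all genes rose and 13.8% fell, and no fold exceeded 3.12, that of Postn. Postn read 309 and 339 in Kdm5a KO (log2 difference -1.64 ± 0.10, adjusted p = 5.14e-07), the lowest mixed-culture level. Thbs2 also fell, to 277 and 223 (-0.99 ± 0.15), whereas Thbs1 rose to 2057 and 1795 (0.52 ± 0.098), so the thrombospondin genes parted. The CCN genes did not pass together either: Ctgf fell to 346 and 317 (-0.72 ± 0.092), and Cyr61 read 613 and 550.3 (-0.0027 ± 0.14, adjusted p = 0.992). Fn1 rose to 2956 and 2994 (1.2 ± 0.12), with both libraries above both WT libraries. Sparc fell to 24542 and 25234 (-0.23 ± 0.05), and Lox read 488 and 530.0 (0.28 ± 0.15, adjusted p = 0.204), overlapping WT. Tnc rose to 336 and 431 (0.56 ± 0.13). Fap rose to 12 and 22 reads (1.48 ± 0.38), a ratio of pooled reads of 2.98 (95% interval 1.35 to 7.44, counting error only). Its mean was 4.39 in WT and 13.1 in Kdm5a KO, below the filter of 10 over these 2 groups. Fap was tested here only because the filter used all 8 mixed libraries, and it was high in Rb1 KO and DKO. The calls of Tnc and Fap were lost without Kdm5a KO replicate 2 or without WT replicate 1, where the Fap difference was 0.91. Without WT replicate 2, Lox passed at 0.59 (adjusted p = 0.00156). A fit over all 12 libraries called 3 of 10 members, Postn, Thbs2 and Fn1, at the same log2 differences, while calls over all genes went from 27.2% to 7.36%. The fibroblast markers split as well, 3 rising and 5 falling of 10, and skeletal muscle markers had 1 of 10 rising and 8 falling. Their part was not tested.

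The difference between these Kdm5a effects was tested as an interaction, the effect of Kdm5a loss without Rb1 minus its effect with Rb1. It was negative and passed for 9 members, where 19.5% of all genes passed below 0 and 18.8% above. It ranged from -4.98 ± 0.14 (SE) for Thbs1 to -1.05 ± 0.071 for Sparc. Fn1 stood at -4.20 ± 0.17, Lox at -3.0 ± 0.21 and Cyr61 at -2.50 ± 0.20. Postn, which fell in both backgrounds, had an interaction of -2.37 ± 0.15, and Thbs2, which also fell in both, -2.10 ± 0.21. Tnc was at -1.80 ± 0.19 and Ctgf at -1.70 ± 0.13. Fap, at -1.30 ± 0.54 (adjusted p = 0.0761), did not pass, and did without WT replicate 2 (-1.86, adjusted p = 0.00482).

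**Figure D3:**
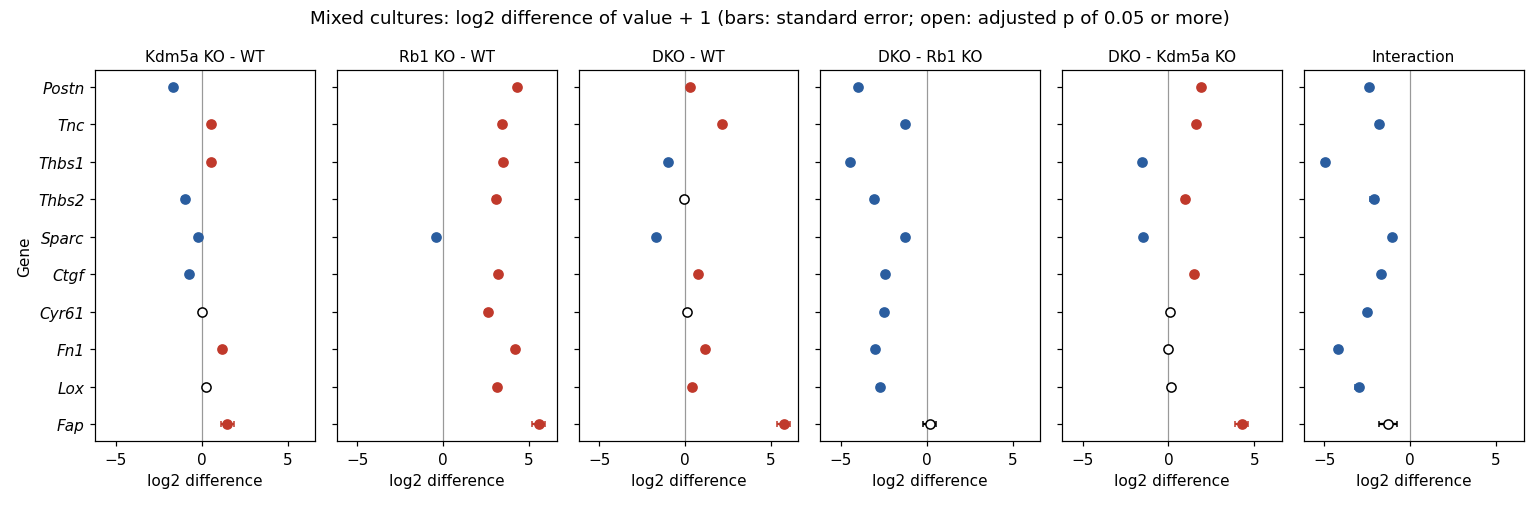
log2 difference (value + 1) of each member in the mixed-culture comparisons, with bars of 1 SE. In Rb1 KO against WT the 9 members other than Sparc lie above 0, and in DKO against Rb1 KO all but Fap lie below 0.

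The DKO was also set against WT and against Kdm5a KO, comparisons that share its libraries. Against WT, 6 members rose and 2 fell, with 34.0% of all genes rising and 33.9% falling. Fap stood 53.2-fold higher (5.73 ± 0.38), with a ratio of pooled reads of 58.7 (95% interval 29.7 to 136, counting error only). Tnc was 4.46-fold higher (2.16 ± 0.13), Fn1 2.26-fold (1.17 ± 0.12) and Ctgf 1.67-fold (0.74 ± 0.092). Sparc was 3.27-fold lower (-1.71 ± 0.05) and Thbs1 1.98-fold lower (-0.99 ± 0.098). Thbs2 (-0.038 ± 0.15, adjusted p = 0.832) and Cyr61 (0.086 ± 0.14, adjusted p = 0.608) did not pass. The rises of Postn (0.28 ± 0.10, adjusted p = 0.0277) and Lox (0.42 ± 0.15, adjusted p = 0.0269) were close to the threshold. Both lost their call without the filter on low values, in the fit of all 12 libraries and in that of these 2 groups alone. Without WT replicate 1 the Postn and Lox differences were 0.089 and 0.11, and neither gene passed there or without DKO replicate 1 or 2. Cyr61 passed without WT replicate 2 (0.35, adjusted p = 0.0182).

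Against Kdm5a KO, 5 members rose and 2 fell, with 33.7% of all genes rising and 33.4% falling. Fap (4.26 ± 0.38), Postn (1.92 ± 0.10), Tnc (1.60 ± 0.13), Ctgf (1.47 ± 0.092) and Thbs2 (0.96 ± 0.15) were higher in DKO. Thbs1 (-1.51 ± 0.098) and Sparc (-1.48 ± 0.05) were lower. Cyr61 (0.088 ± 0.14), Fn1 (-0.022 ± 0.12) and Lox (0.14 ± 0.15) did not pass, at adjusted p = 0.598, 0.887 and 0.423. Fibroblast markers rose in 8 of 10 cases against WT (median 0.55) and in 9 of 10 against Kdm5a KO (median 1.21), so Thbs1 and Sparc fell while most of those markers rose. Endothelial markers had 4 of 4 rising and 0 falling against WT (median 2.48) and 4 of 4 rising and 0 falling against Kdm5a KO (median 1.61), at the low sums given above. Skeletal muscle markers had 0 of 10 rising and 10 falling against WT and 2 of 10 rising and 7 falling against Kdm5a KO. Smooth muscle markers had 2 of 5 rising and 2 falling and 3 of 5 rising and 2 falling. The part of these cell types was not tested.

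In purified myotubes, DKO against WT showed both directions: 3 members rose and 6 fell, with 21.0% of 16670 genes rising and 18.6% falling. Ctgf dropped from 6815 and 9617 in WT to 390.3 and 613 in DKO (16.5-fold, log2 difference -4.05 ± 0.31, adjusted p = 0.00159). Cyr61, at 1140.5 and 1221 in WT and 548 and 695 in DKO, fell less (-0.93 ± 0.22, adjusted p = 0.0242). Tnc, abundant in WT purified at 8763 and 10013, read 1085 and 1184 in DKO (-3.05 ± 0.19, adjusted p = 0.00117). Thbs1 went from 8007 and 9959.7 to 3771 and 2755 (-1.47 ± 0.25), Thbs2 from 631 and 593 to 213 and 213 (-1.51 ± 0.21), and Sparc from 28405 and 30046 to 7682 and 5863 (-2.12 ± 0.23).

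The 3 that rose were the crosslinking enzyme Lox, from 39.1 and 72.1 to 314 and 592 (3.0 ± 0.46, adjusted p = 0.0079), fibronectin, from 5466 and 7152 to 14826 and 25295 (1.63 ± 0.33, adjusted p = 0.0163), and periostin. Postn was counted at 12 and 10 reads in WT (22.3 and 12.4 normalised) and at 73 and 87 in DKO (119 and 91.0 normalised), a log2 difference that passed (2.57 ± 0.43, adjusted p = 0.00997). Fap had 5 and 23 reads in WT and 3 and 4 in DKO (-1.66 ± 0.70, adjusted p = 0.116), and the ratio of pooled reads was 0.214 (95% interval 0.0788 to 0.501, counting error only). It did not pass here, and passed in a fit of all 12 libraries (adjusted p = 0.0192), where calls over all genes went from 39.6% to 60.0%. Only 4 libraries set the spread: without WT purified replicate 1 the calls went from 9 to 4 (Postn, Tnc, Ctgf, Lox), and without replicate 2 to 3 (Tnc, Ctgf, Lox). Over all genes the calls went from 6598 to 1983 and 2170. The members that lost their call kept their direction, with Sparc at -2.16 and -2.08. Of 8 fibroblast markers tested, 2 rose and 3 fell (median 0.22). Skeletal muscle markers summed to 580998 and 568579 in WT and 210331 and 195679.5 in DKO, with 1 of 10 rising and 5 falling. Smooth muscle markers summed to 105953 and 113438 in WT and 18593 and 29425 in DKO, and of the endothelial markers 3 of 4 rose (median 2.25). Their part in the members' differences was not tested.

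Whether DKO acted alike in the 2 preparations was tested as the DKO effect in purified myotubes minus that in mixed cultures, over all 12 libraries. The test passed above 0 for 2 members and below 0 for 5, where 11.6% and 13.2% of all genes passed. Tnc and Ctgf, which rose in mixed cultures and fell in purified myotubes, differed by -5.20 ± 0.23 and -4.79 ± 0.30. Fap, which rose in mixed cultures and did not pass in purified myotubes, differed by -7.40 ± 0.74. Thbs2 (-1.48 ± 0.25) and Cyr61 (-1.02 ± 0.26) fell in purified myotubes and did not pass in mixed cultures. Lox (2.58 ± 0.47) and Postn (2.29 ± 0.34) rose more in purified myotubes. Thbs1 (-0.48 ± 0.25, adjusted p = 0.179), Sparc (-0.41 ± 0.18, adjusted p = 0.125) and Fn1 (0.46 ± 0.34, adjusted p = 0.361) did not pass, and had the same direction in both preparations. Without DKO purified replicate 1 the differences were -0.71 for Thbs1, -0.61 for Sparc and 0.84 for Fn1. These 3 passed there, but the share of all genes passing rose as well, so the gain does not describe the members alone. Cyr61 no longer passed without WT purified replicate 2, WT mixed replicate 1 or either DKO mixed library, where that share fell. RNA selection, sequencer and recovery time differ between the preparations and cannot be told apart from the separation of myotubes.

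**Figure D4:**
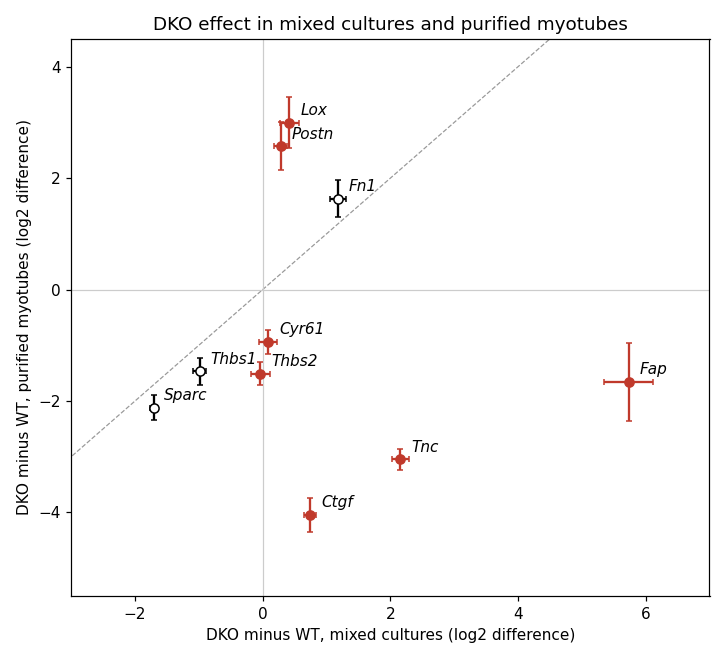
log2 difference (value + 1) of DKO against WT for each member in mixed cultures (x axis) and purified myotubes (y axis), with bars of 1 SE. Sparc and Thbs1 lie below 0 on both axes, Fn1, Lox and Postn above 0 on both, and Tnc, Ctgf and Fap above 0 on the x axis and below 0 on the y axis.

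Relatives of the members, chosen by family, were set beside them. Of 25 family relatives 22 were tested in mixed cultures. In Rb1 KO against WT 17 rose and 3 fell (median 1.2), and in DKO against Rb1 KO 3 rose and 13 fell (median -0.99). Of all genes, 36.8% rose and 34.3% fell in the first comparison, and 23.1% rose and 24.2% fell in the second. Wisp1, the fourth CCN protein, read 2097 and 2249 in WT, 9907 and 9828 in Rb1 KO and 2585 and 2605 in DKO (2.18 ± 0.073 and -1.93 ± 0.073). The lysyl oxidase relative Loxl2 read 169.9 and 158 in WT, 1341 and 1426 in Rb1 KO and 251 and 254 in DKO (3.07 ± 0.12 and -2.45 ± 0.12). Both were high in Rb1 KO and lower in WT and DKO. They were named for having the smallest p among the relatives in both comparisons, so large differences there were selected for. The genes named from the next 3 lists were picked by the same rule. In purified myotubes 5 of 21 relatives rose and 6 fell (median 0.0035), beside 21.0% and 18.6% of all genes. Wisp1 fell there (-2.84 ± 0.18), as did Dpp4, the protease closest to Fap, from 253 and 212 to 9.76 and 3.14 (-5.12 ± 0.55).

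The YAP/TAZ list held 24 tested genes: the coactivators, their TEAD partners, regulators such as Lats1, Lats2 and Wwc1, and known targets. Its counts mix these roles. In Rb1 KO against WT 15 rose and 8 fell (median 0.64), where 36.8% of all genes rose and 34.3% fell. In DKO against Rb1 KO 4 rose and 16 fell (median -0.51), where 23.1% of all genes rose and 24.2% fell. Axl, a receptor tyrosine kinase, rose by 2.06 ± 0.064 and then fell (-1.41 ± 0.064), and the phosphatase gene Ptpn14 rose by 2.34 ± 0.067. Ddah1, which degrades methylarginines, fell in DKO against Rb1 KO (-1.36 ± 0.066). In purified DKO myotubes 3 of 24 rose and 11 fell, beside 21.0% and 18.6% of all genes. Fjx1, encoding a secreted ligand-like protein, went from 1901 and 1969 to 37.4 and 40.8 (-5.59 ± 0.22) and Wwc1, encoding the Hippo scaffold KIBRA, from 2329 and 2289.6 to 192 and 218 (-3.49 ± 0.20).

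Of 20 TGF-beta ligands, receptors, Smads and targets, 19 rose and 1 fell in Rb1 KO against WT (median 1.30), beside 36.8% and 34.3% of all genes. In DKO against Rb1 KO 1 rose and 13 fell (median -0.71), beside 23.1% and 24.2%. Ltbp1, which holds latent TGF-beta in the fibronectin matrix, differed by 3.0 ± 0.093 in Rb1 KO against WT and -2.34 ± 0.093 in DKO against Rb1 KO. In purified myotubes 10 of 20 rose and 4 fell in DKO, beside 21.0% and 18.6% of all genes. Ltbp4 went from 39.1 and 48.5 to 1259 and 2889 (5.42 ± 0.44) and Ltbp2 from 331 and 410.0 to 2579 and 3455 (3.01 ± 0.24).

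Receptors and processing partners of the members, 20 in all, rose in 14 cases and fell in 5 in Rb1 KO against WT (median 0.87). The shares of all genes were 36.8% and 34.3%. Syndecan-1, encoded by Sdc1, read 201 and 216 in WT and 2482 and 2398 in Rb1 KO (3.54 ± 0.10), and Efemp2, a fibulin that presents elastin to lysyl oxidase, rose by 2.59 ± 0.12. In DKO against Rb1 KO 2 rose and 16 fell (median -0.78), beside 23.1% and 24.2% of all genes. The beta-1 integrin gene Itgb1 fell (-0.66 ± 0.042). Cd36, the thrombospondin receptor and fatty acid transporter, rose while Thbs1 and Thbs2 fell: it read 47.3 and 63.4 in Rb1 KO and 904 and 853 in DKO (3.98 ± 0.22). In purified myotubes 7 of 20 rose and 4 fell, beside 21.0% and 18.6% of all genes. Sdc1 (2.32 ± 0.21) and Fbln1, a fibulin that binds fibronectin (4.23 ± 0.42), were both higher in DKO. Loxl2, Ptpn14, Efemp2, Dpp4 and Ltbp2 share exonic bases with another annotated gene. Medians over all genes tested lay between -0.05 and 0.03 in these 3 comparisons. In Kdm5a KO against WT the lists gave 3 of 24 rising and 8 falling for YAP/TAZ, 2 of 20 rising and 7 falling for receptors, 3 of 20 rising and 5 falling for TGF-beta and 6 of 22 rising and 4 falling for relatives, where 13.4% of all genes rose and 13.8% fell.

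**Figure D5:**
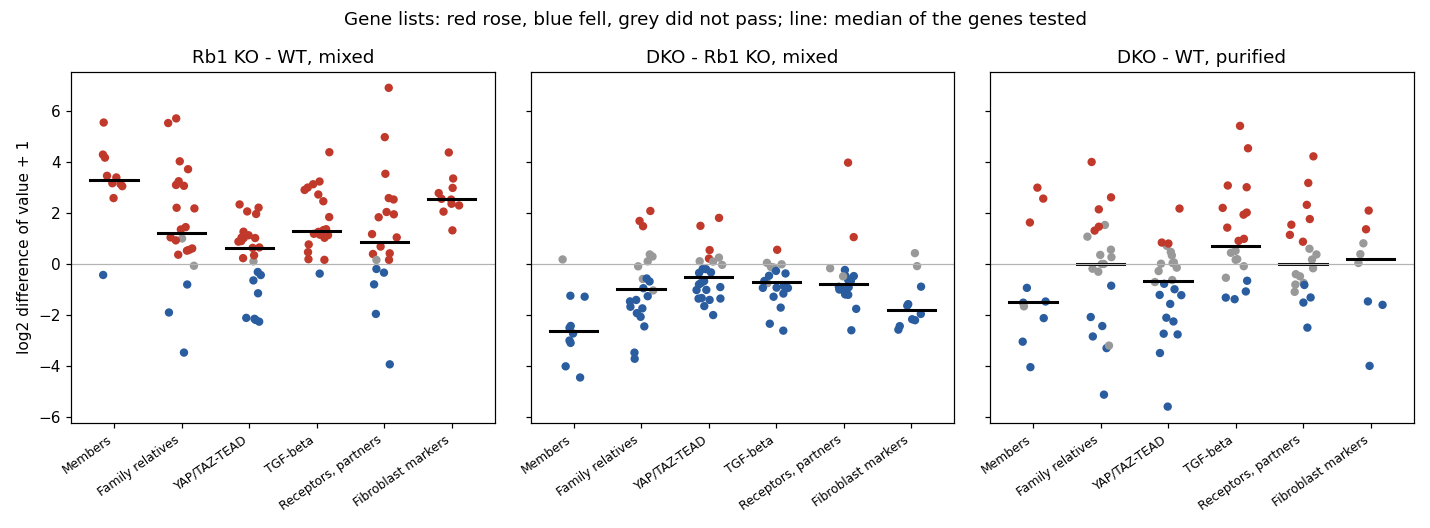
log2 differences (value + 1) of the tested genes of the members and the 4 pathway lists (points) in 3 comparisons, with the median of each list as a bar. In Rb1 KO against WT the members' median stands above those of the 4 lists, and in DKO against Rb1 KO it stands below them.

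Members were alike in profile to different degrees over the 8 mixed libraries, by Pearson r of log2 values, a description over libraries that share their genotype groups. Postn and Thbs2 had r = 0.99, Postn and Ctgf 0.99, and Cyr61 and Lox 0.99. Tnc was closest to Fap (0.93). Sparc was apart from all, from -0.74 with Fap to 0.42 with Thbs1. Among all other genes, Syndig1 was nearest to Postn (r = 0.999), Wdfy1 to Thbs1 (0.997), Pakap to Thbs2 (0.996) and Hoxa10 to Sparc (0.999). For Tnc the nearest was the overlapping 8030451A03Rik (0.998) and then Rab23 (0.997). Cald1, encoding caldesmon, came first for Ctgf (0.999), ahead of the overlapping Gm15270. The TGF-beta-induced Pmepa1 (0.995) and the Wnt agonist Rspo2 (0.995) were nearest to Cyr61, and Rspo2 was also the second nearest to Lox (0.996). Plcb3 and Nrp1 were nearest to Fn1 (0.997 and 0.996), and Ccnl1 and Icam1 to Fap (0.999 and 0.998). Across all 6 groups, the highest mean of a member exceeded its lowest by 4.32-fold for Sparc, 6.05-fold for Cyr61 and 1146-fold for Postn. The Sparc fold lies between WT mixed and DKO purified, and the Postn fold between Rb1 KO mixed and WT purified. Both thus compare groups that differ in library type.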

How the data were processed

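RNA-seq of 12 libraries gave 1 deposited table. Its values are a signal, reads divided by a size factor, made by the authors; the submitters' processing notes name TopHat 1.2.0, mm9 and DESeq. The counter, annotation and DESeq version are not given in the sources used here. Whole reads were recovered from each column's step size (100% of values within 0.01) and used for depth and count tests. Differences were tested on log2(value + 1) with limma 3.58.1 (R 4.3.3, trended, two-sided, Benjamini-Hochberg, threshold 0.05), over genes with a mean of at least 10, on the 8 mixed or the 4 purified libraries, or all 12 for the difference between preparations; the procedure was tested on simulated data. Fold changes on this scale understate low genes. edgeR 4.0.16, DESeq2 1.42.0, other scalings, pseudocounts, filters, sample sets, a replicate block and leaving out each library were alternatives. The members and lists were chosen with earlier results of these data known. All members were named in every comparison, and from each pathway list up to 2 genes by smallest p in 3 comparisons, of which 1 gene is not reported here. Symbols and exonic lengths came from GENCODE M21. Vgll3 was not matched. Fap intervals are exact conditional binomial ones.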

Additional observations from a re-analysis of the deposited data

Results flagged for a closer look

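For 7 members the DKO effect differed between purified myotubes and mixed cultures in a test of that difference (limma over 12 libraries). The differences, on the log2 scale and purified minus mixed, were below 0 for 5 of them. Tnc stood at -5.20 ± 0.23 (SE, adjusted p = 3.75e-06), Ctgf at -4.79 ± 0.30 (SE, adjusted p = 1.15e-05) and Fap at -7.40 ± 0.74 (SE, adjusted p = 0.000137). Thbs2 stood at -1.48 ± 0.25 (SE, adjusted p = 0.00232) and Cyr61 at -1.02 ± 0.26 (SE, adjusted p = 0.0169). Lox, at 2.58 ± 0.47 (SE, adjusted p = 0.00365), and Postn, at 2.29 ± 0.34 (SE, adjusted p = 0.00128), were above 0. Fap rests on 3 to 23 reads per purified library.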

How the results depend on the processing

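Of 1225 recomputed member values, 1174 kept their direction and their side of the threshold, 36 lost it, 7 gained it and 8 changed sign, none of the last passing where the sign differed from the reported one. The number of members passing was 3 instead of 8 for Kdm5a KO against WT when all 12 libraries were fitted, where calls over all genes went from 27.2% to 7.36%; the cause was not tested. With 1 library left out it was 6 to 9 there, 10 to 10 for Rb1 KO against WT, 9 to 9 for DKO against Rb1 KO, 6 to 9 for DKO against WT in mixed cultures and 3 to 9 in purified myotubes, where a lone sample is assumed to vary like the other group and fewer libraries set the spread. It was 7 to 7 for DKO against Kdm5a KO, 9 to 10 for the interaction and 6 to 10 for the difference between preparations. The share of all genes passing also moved with each library left out, so these counts do not describe the members alone. Other settings cost Postn and Lox their calls in DKO against WT in mixed cultures. These were no filter on low values, all 12 libraries fitted, and the 2 groups alone. Calls over all genes were 47.8%, 52.5% and 67.7% there, against 67.9% as reported. The sign changes were of Cyr61 in Kdm5a KO against WT, at 0.026 with TMM scaling and 0.0072 with size factors within the fitted libraries, and 6 others with 1 library left out. Over the libraries left out, the values of these genes ranged from -0.26 to 0.26 for Cyr61 and -0.035 to 0.59 for Lox in Kdm5a KO against WT. In DKO against WT they ranged from -0.29 to 0.21 for Thbs2 and -0.17 to 0.35 for Cyr61, and in DKO against Kdm5a KO from -0.15 to 0.11 for Fn1.

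The labels do not say that a replicate number marks a shared culture, litter or day, so the numbers were not taken as pairs. The deviations of same-numbered replicates had r of -0.05 to 0.05 between groups. With a replicate block, 8 members passed in Kdm5a KO against WT, 10 in Rb1 KO against WT, 8 in DKO against WT, 9 in DKO against Rb1 KO, 7 in DKO against Kdm5a KO, 9 in the interaction, 9 in purified myotubes and 7 in the difference between preparations, the same numbers as without it. edgeR and DESeq2 on whole reads also gave these numbers. With the block, the shares of all genes passing were, in the order given, 26.9%, 70.9%, 67.6%, 46.9%, 67.0%, 38.0%, 45.8% and 23.8%. With edgeR or DESeq2 the shares lay between 25.0% and 70.7%. The 7 of 10 members in DKO against Kdm5a KO, and the 8 in DKO against WT in mixed cultures, were thus near the shares of all genes. Depth limits Fap, and in purified WT also Postn.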
